A study of Mus musculus with 3 samples.

Results

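The genes described here are 35 mouse genes of the interferon response, chosen as a list of interferon signalling components and of antiviral genes that interferon induces. They fall into 4 receptor chains, 4 kinases and STAT factors, 23 genes induced mainly by type I interferon, 2 guanylate-binding protein genes induced mainly by interferon gamma, and 2 SOCS inhibitors. The platform annotation paired 34 of them with a probe, out of 19057 genes with a named probe on the array, and Ifi44 is not analysed here. Where a gene has several probes, the one brightest on average over the arrays gives its value, and the others served as a check. LLC/luc BM 2nd cells, LLC/luc BM 1st cells and LLC/luc parental cells were each measured on 1 Illumina mouse bead array, as linear intensities in arbitrary units. All 3 lines come from the Lewis lung carcinoma of C57BL/6 mice and carry luciferase. The BM 1st cells were grown in culture from tibial lesions of mice that had received parental cells into the left ventricle, and the BM 2nd cells from lesions that formed after the BM 1st cells were injected in the same way. Each line was thus 1 culture with 1 array, and the differences have no replicate check. Precision is limited by having so few arrays, and no p-value can be given.

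Interferons are secreted proteins that cells release when they sense viral or other foreign nucleic acids. Type I interferons bind the receptor chains encoded by Ifnar1 and Ifnar2 and, through JAK kinases, activate a complex of STAT factors and Irf9 that binds the interferon-stimulated response element (ISRE), whereas interferon gamma binds the receptor of Ifngr1 and Ifngr2 and acts through STAT dimers at gamma-activated sites (GAS). The induced genes include RNA sensors, enzymes and membrane proteins that restrict viruses, and SOCS proteins that switch the signal off. In tumour cells the same genes can be induced by interferon from the cells themselves or from their surroundings.

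The ISRE core was searched for as GAAANNGAAA on both strands, overlapping matches being kept as separate matches, in RefSeq promoter windows of 300 bases (250 before the transcription start and 50 after it, GRCm38.p6). Of the 35 genes 31 had at least 1 window, and 15 of these held a match, in 15 of their 35 windows (42.9%), against 1131 of all 32851 windows (3.44%). The stretches below are shown because they carry the kind of site through which interferon is known to induce many of these genes. Ifit1, Oas1a and Socs1 were above background on no array, and Isg15 and Gbp2 reached 145 and 149 in BM 2nd cells. By the brightest probe of each gene, Ifitm2 had the highest ratio between BM 2nd and parental cells. At 2 dimmer probes Ifitm1 had higher ratios, and its window held no match. Each stretch is written 5′ to 3′ in the direction of the gene, with the matches in capitals.
Isg15: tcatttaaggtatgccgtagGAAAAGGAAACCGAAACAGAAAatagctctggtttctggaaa
Ifit1: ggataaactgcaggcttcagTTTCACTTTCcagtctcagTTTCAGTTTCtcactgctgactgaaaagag
Oas1a: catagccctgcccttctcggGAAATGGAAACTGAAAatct
Gbp2: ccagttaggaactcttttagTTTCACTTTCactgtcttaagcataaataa
Socs1: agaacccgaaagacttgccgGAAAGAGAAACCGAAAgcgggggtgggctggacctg
Ifitm2: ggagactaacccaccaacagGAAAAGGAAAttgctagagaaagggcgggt
They lie upstream of the starts, at chr4:156200855-156200916 on the minus strand for Isg15, chr19:34640765-34640833 on the plus strand for Ifit1, chr5:120907526-120907565 on the minus strand for Oas1a, chr3:142620584-142620633 on the plus strand for Gbp2, chr16:10785584-10785639 on the minus strand for Socs1 and chr7:140955978-140956027 on the minus strand for Ifitm2. Isg15, Oas1a and Socs1 held overlapping copies of the core, and Ifit1 held 2 separate copies. The GAS core TTCNNNGAA, searched in the same way, was found in 10 of the 35 windows (28.6%) and in 8.3% of all windows. A match is a description of the letters and not a measured site.

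Olfactory and vomeronasal receptor genes are silent in most tissues, and the 95th percentile of their 1504 probes served as the background of each array, 109 (parental), 109.8 (BM 1st) and 107 (BM 2nd). Of the 34 genes 19 lay above it on all 3 arrays, 7 on some and 8 on none. Of all 19057 genes 8647 lay above background on all 3 arrays. On the single arrays 9661 (parental), 9549 (BM 1st) and 10019 (BM 2nd) of all genes did. The median of these probes was 92.8 (parental), 92.3 (BM 1st) and 91.9 (BM 2nd), far from 0, from which it was inferred that no background had been subtracted, and in that case ratios of dim genes understate the change in their RNA. Genes used as markers of other cells were read beside the interferon genes. The summed intensity of 18 leukocyte genes was 2063 (parental), 6823 (BM 1st) and 3598 (BM 2nd), and that of 14 fibroblast and marrow stroma genes was 4090.0 (parental), 11225 (BM 1st) and 19323 (BM 2nd). That of 8 endothelial genes was 828 (parental), 820.4 (BM 1st) and 821 (BM 2nd). Past a log2 ratio of 1, 5 of 11 stroma genes (Col1a1, Dcn, Lum, Dpt and Pdgfra) and 3 of 9 leukocyte genes (Lyz1, Lyz2 and Laptm5) were higher for BM 2nd against parental cells, beside 1.83% of all genes compared. Of the stroma genes Pdgfrb, Thy1 and Postn were above background on no array, and Col1a2 in parental cells only. Cxcl12 had a log2 ratio of -0.055 for BM 2nd against parental cells. Lum is also the gene whose expression the paper followed in the BM 2nd cancer cells, so it does not mark other cells alone. For BM 1st against parental cells 4 of 9 stroma genes (Dcn, Lum, Dpt and Pdgfra) and 4 of 12 leukocyte genes (Lyz1, Lyz2, Laptm5 and Fcer1g) were higher, beside 2.04%. In that comparison 1 stroma gene (Fbln1) was lower, beside 1.79%. Of the 18 leukocyte genes 5 (parental), 11 (BM 1st) and 8 (BM 2nd) were above background, and 13 were highest in BM 1st cells. Ptprc, which encodes the common leukocyte antigen, was at 102 (parental), 111 (BM 1st) and 104 (BM 2nd), just above background in BM 1st cells only, and Tyrobp was above background on no array. Of 8 epithelial genes, Krt8 had intensities of 1381 (parental), 997 (BM 1st) and 2509 (BM 2nd) and Krt18 of 2025 (parental), 2280.1 (BM 1st) and 1274 (BM 2nd), and Epcam was above background on no array. The part of these markers in the values below was not tested, and in such bulk samples fewer cells of a type and less RNA per cell cannot be told apart.

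The first question was whether the interferon genes as a group differed between the bone-selected lines and the parental line. A comparison took in every gene with signal over background in either line, and the threshold for calling a gene higher or lower was a log2 intensity ratio beyond 1 or -1. By its brightest probe, no interferon gene passed that threshold in any comparison. For BM 2nd against parental cells 0 of 25 genes were higher, beside 1.83% of all 10579 genes compared, and 0 were lower, beside 1.53%. For BM 1st against parental cells 0 of 23 were higher, beside 2.04% of 10377 genes, and 0 were lower, beside 1.79%. For BM 2nd against BM 1st cells 0 of 25 were higher, beside 3.01% of 10562 genes, and 0 were lower, beside 1.78%. When each array was instead centred on its bright probes, Ifitm2 passed for BM 2nd against parental cells, 1 of 25 genes beside 2.69% of all genes higher and 1.0% lower, and Ifit2 passed for BM 2nd against BM 1st cells, 1 of 25 beside 4.4% and 1.09%. The median log2 ratio of the 34 genes, with no filter, was 0.09 for BM 2nd against parental cells, 0.00 for BM 1st against parental cells and 0.13 for BM 2nd against BM 1st cells, and the medians over all genes were 0.00, 0.00 and -0.01 in the same order. The 22 type I-induced genes had medians of 0.09, 0.04 and 0.03, and the 2 gamma-induced genes of 0.21, -0.13 and 0.34. After that centring, which moves the ratios of all genes up by 0.14 for BM 2nd against parental and by 0.16 for BM 2nd against BM 1st cells, the type I-induced medians of these comparisons were 0.23 and 0.18.

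Smaller differences were set against the spread of the receptor probes, whose log2 ratios ran between -0.33 and 0.34 for BM 2nd against parental cells, between -0.46 and 0.48 for BM 1st against parental cells, and between -0.51 and 0.41 for BM 2nd against BM 1st cells. For BM 2nd against parental cells 11 of the 25 genes compared lay above that range (44.0%, beside 16.1% of all genes compared), namely Ifngr1, Ifngr2, Jak1, Stat3, Ifit2, Oasl2, Ifitm2, Ifitm3, Eif2ak2, Gbp2 and Socs3, and 2 lay below it (8.0%, beside 15.0%), Jak2 and Bst2. For BM 1st against parental cells 3 of 23 lay above (13.0%, beside 9.05%), all of them Ifitm genes, and 1 lay below (4.35%, beside 10.2%), Jak2. For BM 2nd against BM 1st cells 8 of 25 lay above (32.0%, beside 13.8%) and 2 below (8.0%, beside 9.11%), Bst2 and Ifitm3. Oasl2 entered these counts only through its BM 2nd array, and Gbp2 entered the last comparison only through that array. The comparisons share arrays and so are not independent of each other. The range comes from dim probes on single arrays and is no measure of the spread between cultures. It was chosen as a yardstick after the values were seen, so these shares are a description only. The Ifitm genes are counted singly here, although signal shared between their probes cannot be told apart.

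**Figure D1:**
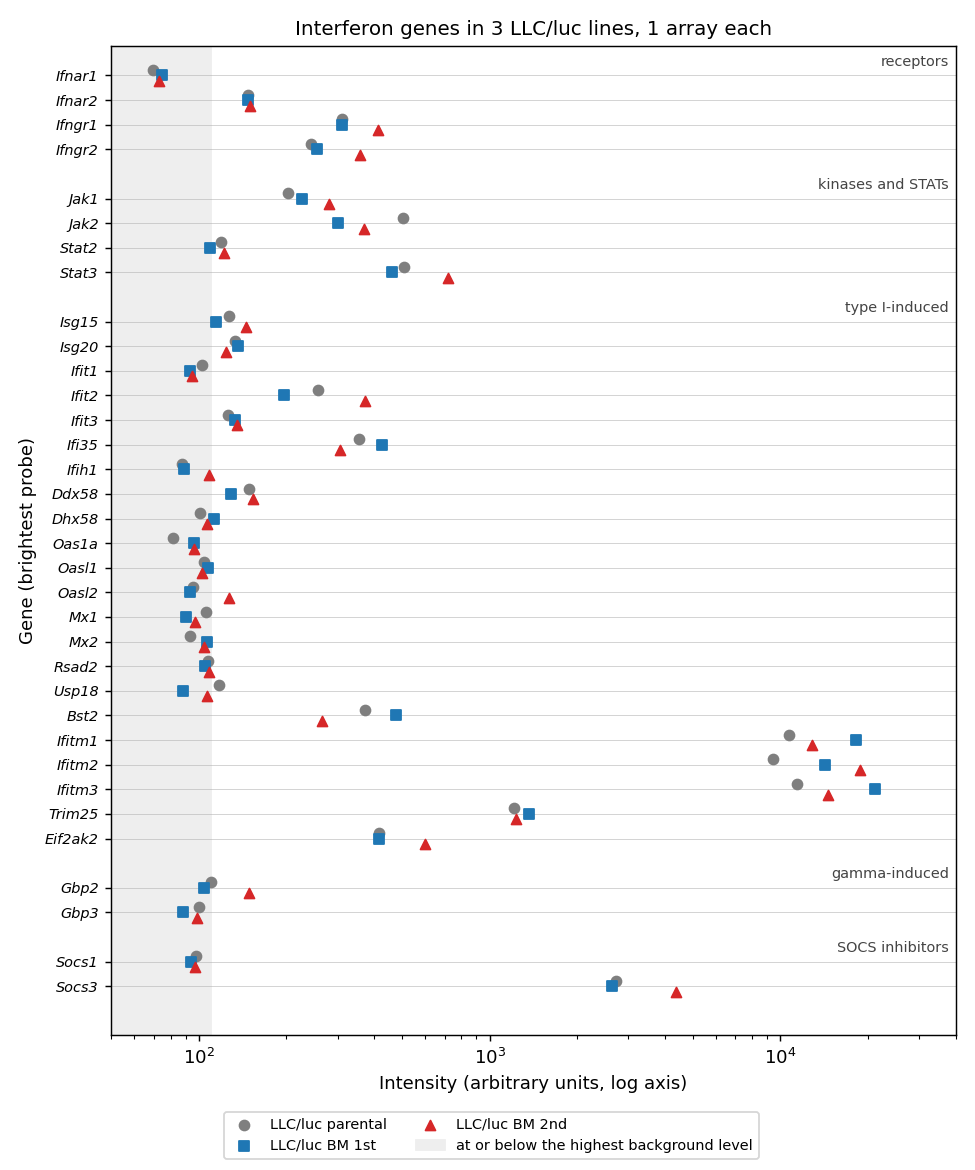
Intensity of the brightest probe of each of the 34 interferon genes (rows, by role) on a log axis, in arbitrary units, with 1 point per cell line and 1 array per line. Grey shading marks values up to 109.8, the highest background level of the 3 arrays. Of these genes 8 lay above background on no array and 19 on all 3, where 8647 of all 19057 genes lay.

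At their brightest probes the receptor chains for interferon gamma had higher intensities in BM 2nd cells than in both other lines, and the type I chains differed by less than the range of the olfactory and vomeronasal receptor probes. Ifngr1, the ligand-binding chain, had intensities of 310.2 (parental), 311 (BM 1st) and 415 (BM 2nd), a log2 ratio of 0.42 for BM 2nd against parental cells and of 0.00 for BM 1st against parental cells. Ifngr2, the signalling chain, had 242 (parental), 254 (BM 1st) and 358 (BM 2nd), with log2 ratios of 0.57 for BM 2nd and 0.07 for BM 1st against parental cells. Its other 2 probes gave 0.29 and 0.34 for BM 2nd and 0.31 and 0.33 for BM 1st, so these probes did not set BM 2nd cells apart from BM 1st cells. Ifnar2, a chain of the type I receptor, was at 148 (parental), 148 (BM 1st) and 149.8 (BM 2nd), and all 3 of its probes had absolute log2 ratios of at most 0.15 in every comparison. Ifnar1, the other type I chain, was at 69.7 (parental), 74.9 (BM 1st) and 72.9 (BM 2nd), above background on no array.

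Among the kinases and STAT factors, Stat3 and Jak1 had higher intensities in BM 2nd than in parental cells and Jak2 had lower ones. Stat3, which also carries signals of interleukin-6 family cytokines, had intensities of 506 (parental), 460.2 (BM 1st) and 719.7 (BM 2nd). Its 3 probes gave log2 ratios of 0.51, 0.50 and 0.50 for BM 2nd against parental cells and of -0.14, 0.01 and 0.10 for BM 1st against parental cells. The probes were read on the same arrays, so their agreement says nothing of the spread between cultures. Jak1, the kinase used by both interferon types, had 203 (parental), 226 (BM 1st) and 281 (BM 2nd), a log2 ratio of 0.46 for BM 2nd against parental cells that rests on 1 probe, since the other 2 were above background on no array. Jak2, which acts in interferon gamma signalling, had 503 (parental), 302 (BM 1st) and 371 (BM 2nd), with log2 ratios of -0.44 for BM 2nd and -0.74 for BM 1st against parental cells. A second Jak2 probe gave -0.38 and -0.49, and 3.81% of the genes compared were at least as low as Jak2 in BM 1st against parental cells. Stat2, the STAT of the type I complex, stayed near background at 119 (parental), 109 (BM 1st) and 122 (BM 2nd). In BM 1st cells, where it was not above background, its intensity was at least 1.08-fold lower than in the parental line. The log2 ratio of Stat2 for BM 1st against parental cells was -0.12, inside the range of the receptor probes.

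The RNA sensors Ddx58, Ifih1 and Dhx58 and the Oas, Mx, Ifit1 and Rsad2 genes were at or not far above background in all 3 lines. Ddx58, which encodes the RNA sensor RIG-I, was at 149 (parental), 129 (BM 1st) and 153 (BM 2nd). Ifih1, which encodes the RNA sensor MDA5, was at 87.6 (parental), 88.6 (BM 1st) and 108 (BM 2nd), and only the BM 2nd value lay above background. Dhx58, a regulator of both, was at 101 (parental), 113 (BM 1st) and 107 (BM 2nd), above background in BM 1st cells only, at least 1.03-fold higher than in the parental line, whereas 2 of its other 3 probes were above background in BM 2nd cells only. Such a bound divides the intensity of the bright array by the background of the other array, or by the probe's own intensity there if that is higher. It comes from 1 array per line, so it is no minimum for the change between cultures. The Dhx58 log2 ratio of 0.16 for BM 1st against parental cells lay inside the range of the receptor probes. Ifit1, Oas1a, Oasl1, Mx1 and Mx2, which encode proteins that bind viral RNA, a synthetase that activates RNA decay and a relative of it, and GTPases that block viral particles, were above background on no array, with intensities between 81.4 and 107. Oasl2, another synthetase relative, was at 95.2 (parental), 93.2 (BM 1st) and 127 (BM 2nd), at least 1.16-fold higher in BM 2nd than in both other lines. Its other 2 probes were above background on no array. Rsad2, which encodes the antiviral protein viperin, was at 107 (parental), 105 (BM 1st) and 108 (BM 2nd), at the level of background.

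Ifit2 stood apart from Ifit1 and Ifit3, its neighbours on chromosome 19. Its intensity was 256 (parental), 196 (BM 1st) and 374 (BM 2nd), so that BM 2nd cells were the highest and BM 1st cells the lowest. The log2 ratio was 0.54 for BM 2nd against parental cells, -0.39 for BM 1st against parental cells and 0.93 for BM 2nd against BM 1st cells, and 3.42% of the genes compared were at least as high in the last comparison. A second Ifit2 probe gave 0.80, -0.18 and 0.98. Ifit3 was at 126 (parental), 133 (BM 1st) and 135 (BM 2nd), and the log2 ratios of its brightest probe were at most 0.10.

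The ISG15 system attaches a ubiquitin-like protein to other proteins. Isg15, which encodes that protein, was at 127 (parental), 115 (BM 1st) and 145 (BM 2nd), a log2 ratio of 0.19 for BM 2nd against parental cells and of 0.34 for BM 2nd against BM 1st cells, both inside the range of the receptor probes. Usp18, which encodes the protease that removes it and also restrains the type I receptor, was at 117 (parental), 88.4 (BM 1st) and 106 (BM 2nd), above background in parental cells only. Against the parental line its intensity was at least 1.09-fold lower in BM 2nd cells and at least 1.07-fold lower in BM 1st cells. The log2 ratios were -0.14 and -0.41, both inside the range of the receptor probes. Trim25, a ubiquitin ligase that acts on RIG-I, was bright at 1209.6 (parental), 1365 (BM 1st) and 1232 (BM 2nd), with log2 ratios of 0.03 for BM 2nd and 0.17 for BM 1st against parental cells.

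Of the remaining type I-induced genes, Eif2ak2 and Bst2 lay on opposite sides. Eif2ak2, which encodes the RNA-dependent kinase PKR that halts translation, was at 416 (parental), 416 (BM 1st) and 597 (BM 2nd), a log2 ratio of 0.52 for BM 2nd against both other lines. Bst2, which encodes tetherin, a membrane protein that holds budding viruses, was at 372 (parental), 476 (BM 1st) and 265 (BM 2nd). Its log2 ratio was -0.49 for BM 2nd against parental cells, 0.36 for BM 1st against parental cells and -0.85 for BM 2nd against BM 1st cells, where 2.89% of the genes compared were at least as low. Ifi35 had the same order of lines, 356 (parental), 427 (BM 1st) and 306 (BM 2nd), with log2 ratios of -0.22, 0.26 and -0.48 inside the range of the receptor probes. Isg20, an RNA exonuclease gene, was at 133 (parental), 136 (BM 1st) and 124 (BM 2nd). Ifi35, Bst2, Isg20 and Eif2ak2 each have 1 probe.

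The Ifitm genes, neighbours on chromosome 7 that encode small membrane proteins blocking virus entry, were far above background in every line at their brightest probes. By these probes they included the highest ratio of the group to parental cells, both for BM 2nd (Ifitm2) and for BM 1st (Ifitm3). Ifitm2 was at 9451 (parental), 14219 (BM 1st) and 18739 (BM 2nd), a log2 ratio of 0.99 for BM 2nd against parental cells, just inside the threshold, and 1.91% of the genes compared were at least as high. Ifitm3 was at 11369 (parental), 21186 (BM 1st) and 14619 (BM 2nd), with log2 ratios of 0.36 for BM 2nd and 0.90 for BM 1st against parental cells, and 2.64% of the genes compared were at least as high as the last value. The brightest Ifitm1 probe had 10679 (parental), 18199 (BM 1st) and 12882 (BM 2nd), with log2 ratios of 0.27 and 0.77. Both bone-derived lines were thus above the parental line at each of these 3 probes, with BM 2nd cells the highest for Ifitm2 and BM 1st cells the highest for Ifitm3 and for this Ifitm1 probe.

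The 5 Ifitm1 probes did not give the same order of lines. The second brightest had intensities of 1126 (parental), 2943 (BM 1st) and 5119.7 (BM 2nd), log2 ratios of 2.19 for BM 2nd and 1.39 for BM 1st against parental cells. The third had 118 (parental), 206 (BM 1st) and 295 (BM 2nd), with 1.33 and 0.81. Both placed BM 2nd cells above BM 1st cells, by 0.80 and 0.52 on the log2 scale, whereas the brightest probe placed them below by a log2 ratio of -0.50. The remaining 2 probes were above background on no array. By any probe, Ifitm1 was higher past the threshold in BM 2nd cells (2 of 5 probes) and in BM 1st cells (1 of 5 probes) than in parental cells, beside 1.87% and 2.14% of all genes higher by any probe, and it was the only interferon gene for which a probe other than the brightest passed. The Ifitm genes are close relatives, and because probe sequences were not used here, signal shared between them cannot be told apart from their own, so the values of Ifitm1, Ifitm2 and Ifitm3 are uncertain as values of single genes.

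**Figure D2:**
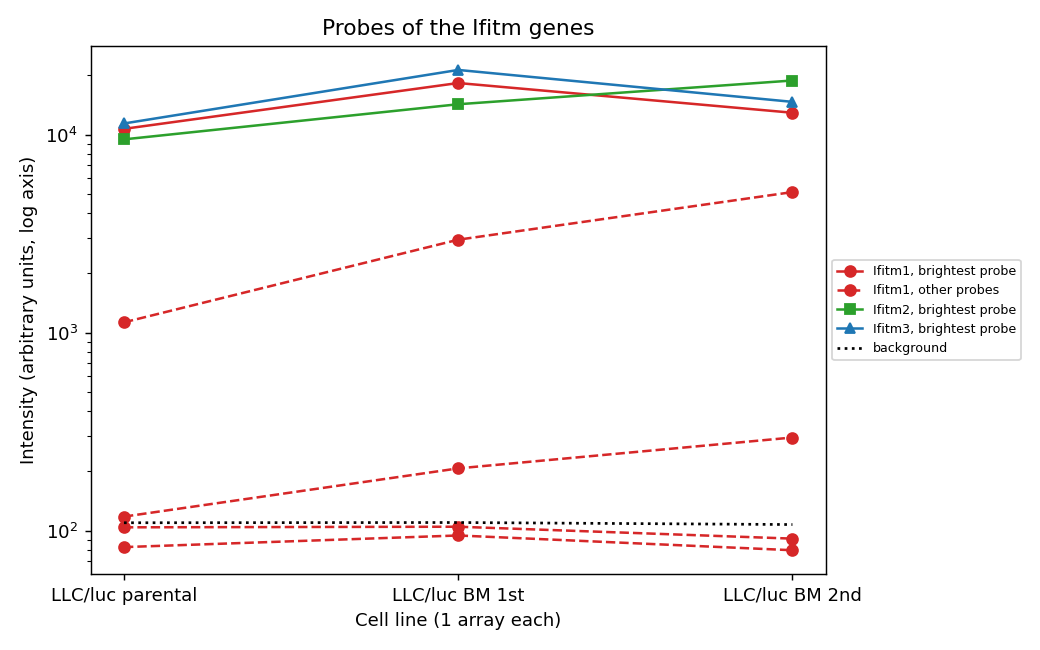
Intensity on a log axis, in arbitrary units, of every Ifitm1, Ifitm2 and Ifitm3 probe in the 3 cell lines, 1 array each; solid lines are the brightest probe of a gene, dashed lines the other Ifitm1 probes, and the dotted line is background. The brightest Ifitm1 and Ifitm3 probes peaked in BM 1st cells at 18199 and 21186, whereas Ifitm2 and 2 dimmer Ifitm1 probes were highest in BM 2nd cells.

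Of the gamma-induced genes Gbp2 was above background in BM 2nd cells and only just so in parental cells, and of the SOCS genes Socs3 was above it in every line. Gbp2, which encodes a GTPase that attacks the vacuoles of intracellular parasites, was at 109.8 (parental), 104 (BM 1st, not above background) and 149 (BM 2nd), a log2 ratio of 0.44 for BM 2nd against parental cells, and BM 2nd cells exceeded BM 1st cells at least 1.35-fold. Its other 2 probes were above background on no array. Gbp3, of the same family, was at 99.9 (parental), 88.1 (BM 1st) and 98.3 (BM 2nd), above background on no array. Socs3, which inhibits signalling downstream of the interleukin-6 family receptor subunit gp130, was at 2719.8 (parental), 2637 (BM 1st) and 4369 (BM 2nd), with log2 ratios of 0.68 for BM 2nd and -0.04 for BM 1st against parental cells, and 5.0% of the genes compared were at least as high as the BM 2nd ratio. Socs1, the main inhibitor of interferon gamma signalling, was at 97.9 (parental), 93.8 (BM 1st) and 97.1 (BM 2nd), above background on no array.

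**Figure D3:**
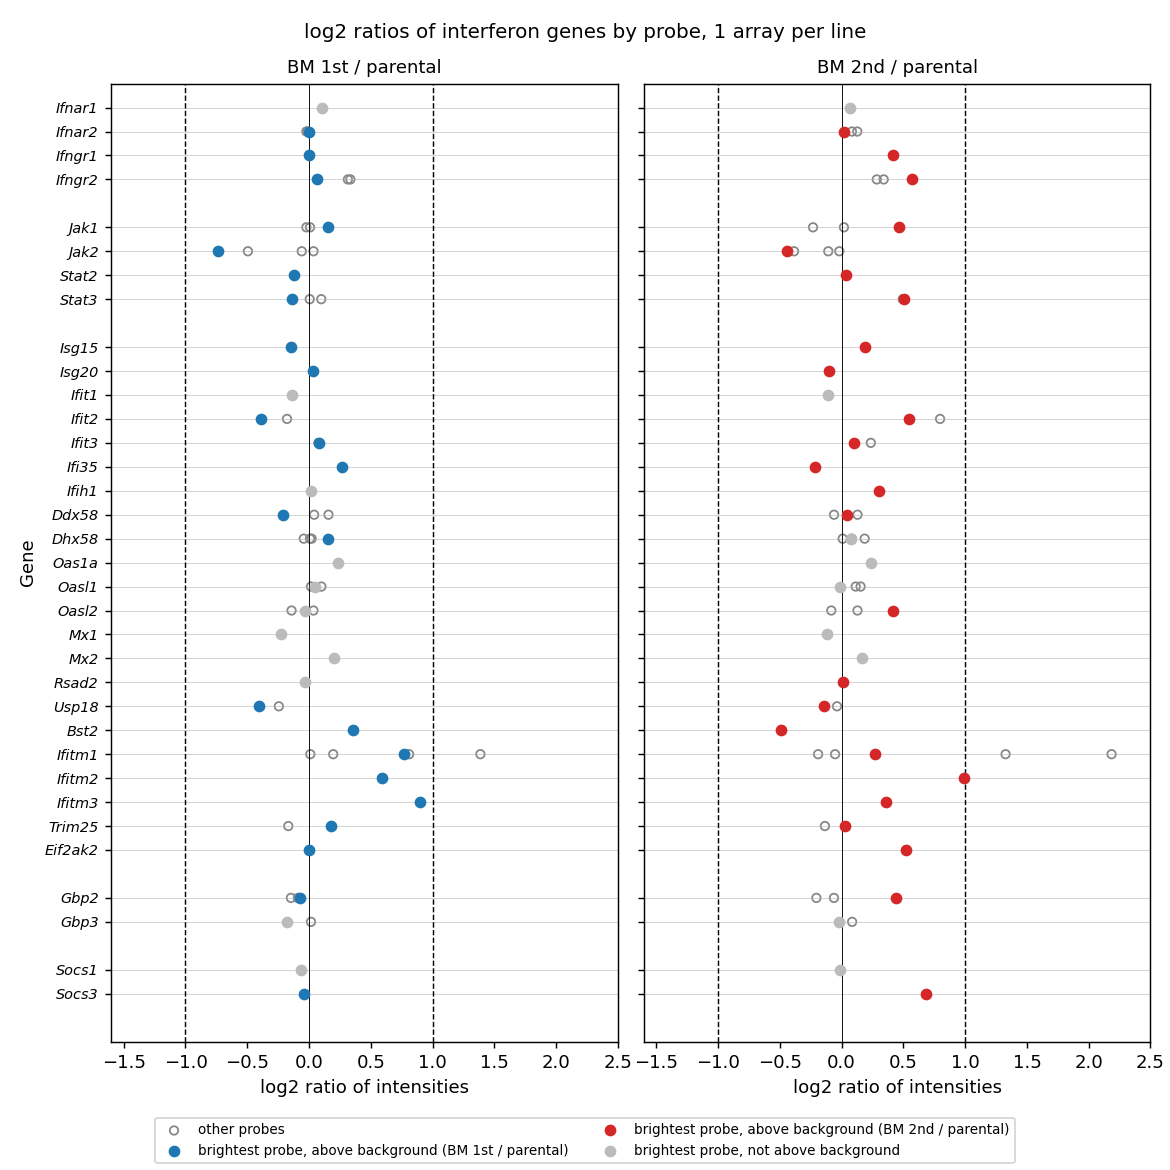
Log2 ratios of the intensities of BM 1st to parental cells (left) and of BM 2nd to parental cells (right) for each of the 34 interferon genes, 1 array per line. Filled points are the brightest probe, in colour when either array of the pair was above background and otherwise in grey, open circles are the other probes, and dashed lines mark a log2 ratio of 1 and -1; only Ifitm1 probes other than the brightest lie past them, at 1.39 on the left and at 1.33 and 2.19 on the right.

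The log2 ratios of the 15 genes with an ISRE core overlapped those of the rest. Their median log2 ratio was 0.10 for BM 2nd against parental cells, between -0.49 for Bst2 and 0.99 for Ifitm2, and -0.03 for BM 1st against parental cells. The 15 genes with a probe and a window but no core had medians of 0.27 and 0.03. Of the genes with a core 7 were above background on all 3 arrays and 4 on none, beside 12 and 2 of the genes without. Irf1, which encodes a transcription factor that binds the same element and that is itself induced by interferon gamma, differed far more than any of them. Its brightest probe was at 1005 (parental), 7449 (BM 1st) and 9813 (BM 2nd), and its 4 brighter probes gave log2 ratios of 3.29, 3.69, 2.73 and 2.64 for BM 2nd and of 2.89, 3.09, 1.99 and 2.03 for BM 1st against parental cells. In parental cells the dimmest Irf1 probe did not exceed background, and BM 2nd cells exceeded them by at least 1.51-fold there and BM 1st cells by at least 1.15-fold.

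**Figure D4:**
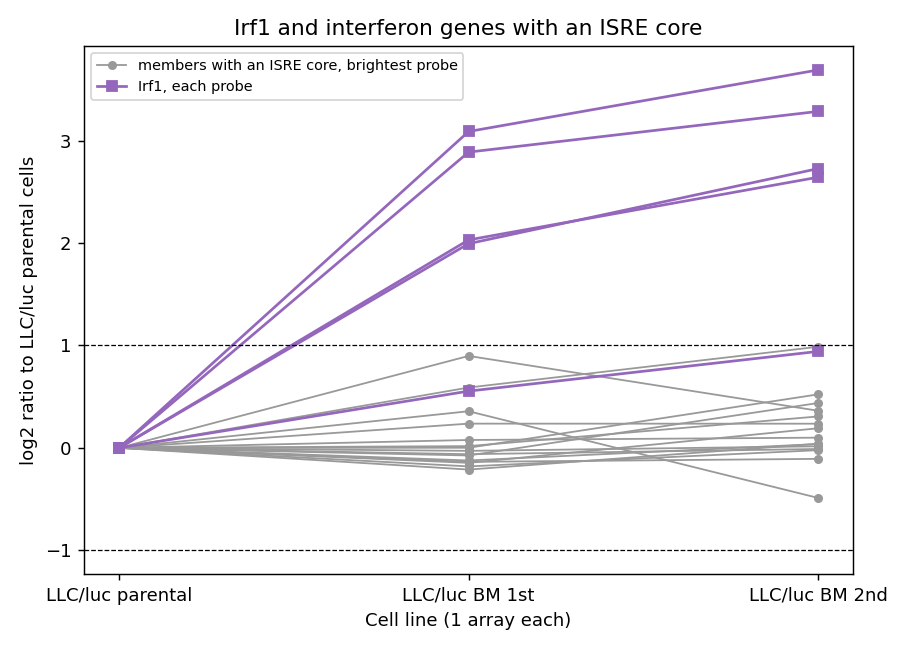
Log2 ratio to the parental line (y axis) in each cell line (x axis, 1 array each) of the 5 Irf1 probes (squares) and of the brightest probe of the 15 interferon genes whose promoter window holds an ISRE core (grey circles); dashed lines mark 1 and -1. All 15 genes lay between -0.49 and 0.99 in BM 2nd cells, where 4 of the 5 Irf1 probes lay at 2.64 or above and the dimmest, without signal over background in the parental line, at 0.94.

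Other genes of the pathway were counted in lists of the same kind. Of 20 interferon ligand genes with a probe 15 were above background on no array and 3 on all 3, beside 8647 of all 19057 genes. Among the 15 were Ifnb1 at 92.4 (parental), 85.7 (BM 1st) and 87.2 (BM 2nd) and Ifng at 100.4 (parental), 95.8 (BM 1st) and 106 (BM 2nd). Those on all 3 were Ifnab at 254 (parental), 236 (BM 1st) and 187 (BM 2nd), Ifna6 at 159, 168 and 129, and Ifna1 at 122, 136 and 124. Of the ligand genes 5 were compared for BM 2nd and 4 for BM 1st against parental cells. None was higher, beside 1.83% and 2.04% of all genes compared, or lower, beside 1.53% and 1.79%. None of 5 passed for BM 2nd against BM 1st cells, beside 3.01% higher and 1.78% lower. Of 14 receptor, kinase, STAT and IRF partners, 10 were compared between BM 2nd and parental cells and Irf1 alone was higher, beside 1.83% of all genes compared. Of 11 compared between BM 1st and parental cells Irf1 alone was higher, beside 2.04%. Irf9, the DNA-binding part of the type I complex, was at 187 (parental), 146 (BM 1st) and 161 (BM 2nd), and Irf7, which amplifies type I interferon production, was above background on no array. None of 8 sensor and adaptor genes compared passed in BM 2nd against parental cells or in BM 1st against parental cells.

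A further list of 47 type I-induced genes with a probe held genes past the threshold. For BM 2nd against parental cells 4 of 27 compared were higher (14.8%, beside the 1.83% of all genes) and 0 lower (beside 1.53%). The list was chosen with earlier results of these data known, so this share is a description only. It was not read under the alternative settings, and 1 of the 4, Samd9l, was only just past the threshold on its 1 probe. For BM 1st against parental cells 0 of 25 were higher (beside 2.04%) and 0 lower (beside 1.79%). The median over all 47 was 0.13 for BM 2nd and 0.04 for BM 1st against parental cells. Ly6e, which encodes a lipid-anchored surface protein that affects virus entry, was at 3248 (parental), 5032 (BM 1st) and 11453 (BM 2nd), a log2 ratio of 1.82 for BM 2nd against parental cells, and its second probe gave 1.88. Lgals3bp, which encodes a secreted glycoprotein that binds galectin-3, was at 315 (parental), 443 (BM 1st) and 861 (BM 2nd), a log2 ratio of 1.45. Uba7, the enzyme that activates ISG15 for attachment, was at 163 (parental), 152 (BM 1st) and 356 (BM 2nd), a log2 ratio of 1.13, and Samd9l, an antiviral factor gene, was at 352 (parental), 259 (BM 1st) and 709 (BM 2nd), a log2 ratio of 1.01. The genes that were higher thus included the activating enzyme of the ISG15 system, whereas Isg15 itself had a log2 ratio of 0.19. Isg15 lay near background, where ratios may understate a change, and Isg15 and Uba7 have 1 probe each, so the contrast is uncertain.

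For BM 2nd against BM 1st cells 5 of 29 genes of that list were higher (17.2%, beside the 3.01% of all genes). Samd9l had a log2 ratio of 1.45, Ifi27 of 1.31, Uba7 of 1.23, Ly6e of 1.19 and Parp14 of 1.03. Both other Parp14 probes were above background on no array. For BM 1st against parental cells all but Ly6e had log2 ratios below 0, between -0.49 for Ifi27 and -0.10 for Uba7, none past the threshold. A choice by the ratio to BM 1st cells favours genes that are low in that array. Of 21 further gamma-induced genes with a probe 13 were above background on no array and 6 on all 3, beside 8647 of all 19057 genes on all 3. None of those compared passed the threshold for BM 2nd or BM 1st against parental cells. Of all genes compared, 1.83% were higher and 1.53% lower for BM 2nd, and 2.04% and 1.79% for BM 1st against parental cells. With no filter, 11 of the 21 gamma-induced genes had log2 ratios above 0 for BM 2nd against parental cells and 10 had ratios below. Their median was 0.00. Among them Irgm1, which encodes a GTPase of the cell-autonomous defence against intracellular microbes, was bright at 7077 (parental), 8397 (BM 1st) and 8611 (BM 2nd), and Irgm2, of the same family, was at 121 (parental), 116 (BM 1st) and 203 (BM 2nd), a log2 ratio of 0.75 for BM 2nd against parental cells. Cxcl10, which encodes a chemokine that attracts T cells, was above background in BM 2nd cells only, at least 1.31-fold higher than in both other lines. The log2 ratio of this probe was 0.40 for BM 2nd against BM 1st cells, inside the range of the receptor probes. A second Cxcl10 probe was above background on no array. Cd274, which encodes the immune checkpoint ligand PD-L1, was at 250 (parental), 211 (BM 1st) and 156 (BM 2nd), a log2 ratio of -0.68 for BM 2nd against parental cells.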

How the data were processed

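RNA of 3 cell lines was measured on Illumina mouse bead arrays in 1 colour. The authors deposited 1 linear intensity per probe and line for 45281 probes. GenomeStudio 2011.1 is named in the submitters' processing notes. How normalization and background were set in it was not given in the sources used here. Once sorted, the arrays differ by at most 0.274, as quantile-normalized values do, which makes the arrays comparable but ties their levels to one shared distribution. Log2 ratios were calculated in pandas 2.3.3 and numpy 2.4.6 under Python 3.11.15, and matplotlib 3.10.9 drew the plots. Genes came from the platform annotation, and promoter windows from RefSeq (GRCm38.p6), which matched 31 of the 35 genes. The scripts that count genes past the threshold were tested on simulated data.

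The genes, lists and thresholds were chosen with earlier results of these data known. All listed interferon genes are reported, and of each other list at most 6 genes past the threshold against parental cells. Irf7, Irf9, Ifnb1, Ifng, Ifnab, Ifna6, Ifna1, Irgm1, Irgm2, Cxcl10, Cd274, Ifi27, Parp14 and Ptpn6, the range of the receptor probes as a yardstick and the reading by any probe were chosen after their values were seen. Median SDs between probes of a gene were between 0.13 and 0.14 on the log2 scale (3154 genes). Alternatives varied the filter, scaling, background, probe and threshold.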

Additional observations from a re-analysis of the deposited data

How the results depend on the processing

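Each line has 1 array, and no setting replaces replicates. No paired analysis was possible because each line has 1 array and the lines share no replicate numbers beyond it. Counts of interferon genes past the threshold were 0 as reported and stayed 0 with no filter, with the filter on both arrays, with a stricter background and with the mean over probes. With arrays centred on probes above background, which shifts all genes by 0.14 for BM 2nd against parental and 0.16 for BM 2nd against BM 1st cells, 1 gene was higher in the first (Ifitm2) and 1 in the second (Ifit2), and the type I-induced medians were 0.23 and 0.18. With background subtracted and a floor of 10, 2 genes were higher in BM 2nd than in parental cells (Oasl2, Gbp2), 1 was higher (Dhx58) and 1 lower (Usp18) for BM 1st against parental cells, and 4 were higher (Isg15, Ifit2, Oasl2, Gbp2) and 1 lower (Bst2) for BM 2nd against BM 1st cells, beside 7.96%, 8.18%, 8.02%, 10.0% and 7.52% of all genes in the same order, and the type I-induced median for BM 2nd against parental cells was 0.23. With the second brightest probe, and by any probe (added after the data were seen), 1 gene, Ifitm1, was higher for BM 2nd and 1 for BM 1st against parental cells, beside 1.3% and 1.83% of all genes with the second brightest probe and 1.87% and 2.14% by any probe, and the Ifitm1 ratio of BM 2nd to BM 1st cells was 0.80 in place of -0.50. At a 1.5-fold threshold 2 genes were higher in BM 2nd than in parental cells (Ifitm2, Socs3), 3 higher (Ifitm1, Ifitm2, Ifitm3) and 1 lower (Jak2) for BM 1st against parental cells, and 3 higher (Stat3, Ifit2, Socs3) and 1 lower (Bst2) for BM 2nd against BM 1st cells, beside 6.76%, 6.5%, 6.37%, 8.54% and 7.11% of all genes in the same order. The causes were not tested. The signal over background limits all genes below an intensity of about 110 to bounds.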

Other observations

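Genes that share kinases and STAT factors with the interferon pathway were read in the same way. Of 10 genes of the gp130 cytokine pathway compared between BM 2nd and parental cells 2 were higher, beside 1.83% of all genes compared, and 1 was lower, beside 1.53%. Osmr, which encodes the receptor chain for oncostatin M, was at 152 (parental), 120.1 (BM 1st) and 355 (BM 2nd), a log2 ratio of 1.23 for BM 2nd against parental cells. Junb, an immediate early transcription factor gene that STAT signals induce, was at 2893 (parental), 3914 (BM 1st) and 6363 (BM 2nd), a log2 ratio of 1.14. A second Junb probe was above background on no array. Il11, which encodes a cytokine that signals through gp130, was at 706 (parental), 510.4 (BM 1st) and 206 (BM 2nd), a log2 ratio of -1.78. In the same arrays Stat3 and Socs3 had log2 ratios of 0.51 and 0.68, under the threshold.

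Of 15 further inhibitors of cytokine signalling, Socs2, which restrains growth hormone signalling, was at 458 (parental), 186 (BM 1st) and 573 (BM 2nd). Its log2 ratio was -1.30 for BM 1st against parental cells and 1.63 for BM 2nd against BM 1st cells. A second Socs2 probe was above background on no array. Ptpn6, which encodes the phosphatase SHP-1, was at 228 (parental), 160.3 (BM 1st) and 389 (BM 2nd), a log2 ratio of 1.28 for BM 2nd against BM 1st cells on its brightest probe. In BM 1st cells its other probe did not exceed background, and BM 2nd cells exceeded them there by at least 1.19-fold. The log2 ratio of that probe was 0.36, inside the range of the receptor probes.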
